A study of Caenorhabditis elegans with 4 samples.

Results

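The peaks described here come from a ZHP-3 ChIP-seq experiment in Caenorhabditis elegans and lie in 2 broad intervals of chromosome IV that carry most of the worm's piRNA genes. A peak belongs to the left cluster when its midpoint lies between 4.5 and 7.0 Mb, and to the right cluster when it lies between 13.5 and 17.2 Mb (WS220). Position alone was used to choose them. The peak list of the whole series, called the combined list below, held 645 such peaks of 11843, with 292 in the left cluster and 353 in the right. The rest of chromosome IV held 1370. The list of ChIP replicate 1 had 343 of its 5981 peaks in the clusters and that of ChIP replicate 2 had 385 of 7001.

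Chromatin came from whole adult hermaphrodites of strain fem-2(b245), genotype fem-2(b245)III, kept at 20 °C. Their stage is given as young adult with a germline, although the growth protocol speaks of gravid worms. The 4 libraries were 2 ChIP and 2 input libraries, all of that same strain, so no other genotype or treatment can be compared. Germline and somatic chromatin were not separated, and the ChIP antibody was a rabbit polyclonal against ZHP-3.

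ZHP-3 is a RING-finger protein that associates with the synaptonemal complex and is needed for meiotic crossovers in the worm. Worm piRNAs, called 21U-RNAs, are bound by the Argonaute PRG-1 and silence foreign sequences in the germline. Each is transcribed as its own short unit, and great numbers of these units are packed into the clusters of chromosome IV, between and inside ordinary genes. In the RefSeq gene table of assembly WBcel235, 14714 of 15363 genes typed as piRNA lie on chromosome IV, or 95.8%. That assembly is not the build of the peak lists, so no peak was placed on a piRNA gene.

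The right cluster was poorer in peaks than the rest of chromosome IV. No such difference was detected for the left cluster as a whole, where 1 window held 34.9% of the combined peaks. The combined list had 95.4 peaks per Mb in the right cluster, 116.8 in the left and 121 on the rest of IV. In replicate 1 these densities were 51.9, 60.4 and 59.6 peaks per Mb, and in replicate 2 they were 56.2, 70.8 and 69.7. The right cluster was thus the lowest of these areas in each list. Its ratio to the rest of IV was 0.79 in the combined list (exact 95% interval 0.70 to 0.88; exact binomial test of peak numbers against length, adjusted p = 0.000533). The ratio was 0.81 in replicate 2 (exact test, adjusted p = 0.0231) and 0.87 in replicate 1, where it did not pass the threshold of 0.05 (exact test, adjusted p = 0.167). The mean over the replicate lists was 0.84 ± 0.05 (SD, n = 2). For the left cluster the ratio was 0.96 in the combined list (0.85 to 1.09) and 1.01 ± 0.0017 (SD, n = 2) in the replicate lists. The exact 95% intervals were far wider than that SD, at 0.84 to 1.21 in replicate 1 and 0.86 to 1.20 in replicate 2. Without its window from 6.5 to 7.0 Mb the left cluster's ratio was 0.78 in the combined list (0.67 to 0.91, exact test, unadjusted p = 0.00126). It was 0.83 in replicate 1 and 0.85 in replicate 2, neither past the threshold (exact tests, unadjusted p = 0.0870 and 0.114). That window was picked as the cluster's fullest, so leaving it out had to lower the ratio, while the rest of IV kept its own fullest window. The unadjusted p-values do not allow for that choice. All p-values here are two-sided, and those called adjusted were adjusted over 12 density ratios. They take peaks as independent, which closely spaced peaks are not, so they are too small. The combined list holds nearly all replicate peaks and is no independent evidence beside them.

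Taken as 1 area, both clusters had 104 peaks per Mb in the combined list, a ratio of 0.86 to the rest of IV (0.78 to 0.94; exact test, adjusted p = 0.00724). The replicate lists gave 0.93 and 0.89, neither past the threshold (exact tests, adjusted p = 0.372 and 0.134). With every cluster border moved outwards by 250 kb the ratio in the combined list was 0.95 and did not pass. The window from 13.0 to 13.5 Mb, just before the right cluster, held 103 combined peaks, the most of any 500 kb window on IV, and that from 4.0 to 4.5 Mb, just before the left cluster, held 83. The window from 7.0 to 7.5 Mb, just after the left cluster, held 62, and the 23 peaks beyond the right cluster gave 78.3 per Mb.

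**Figure D1:**
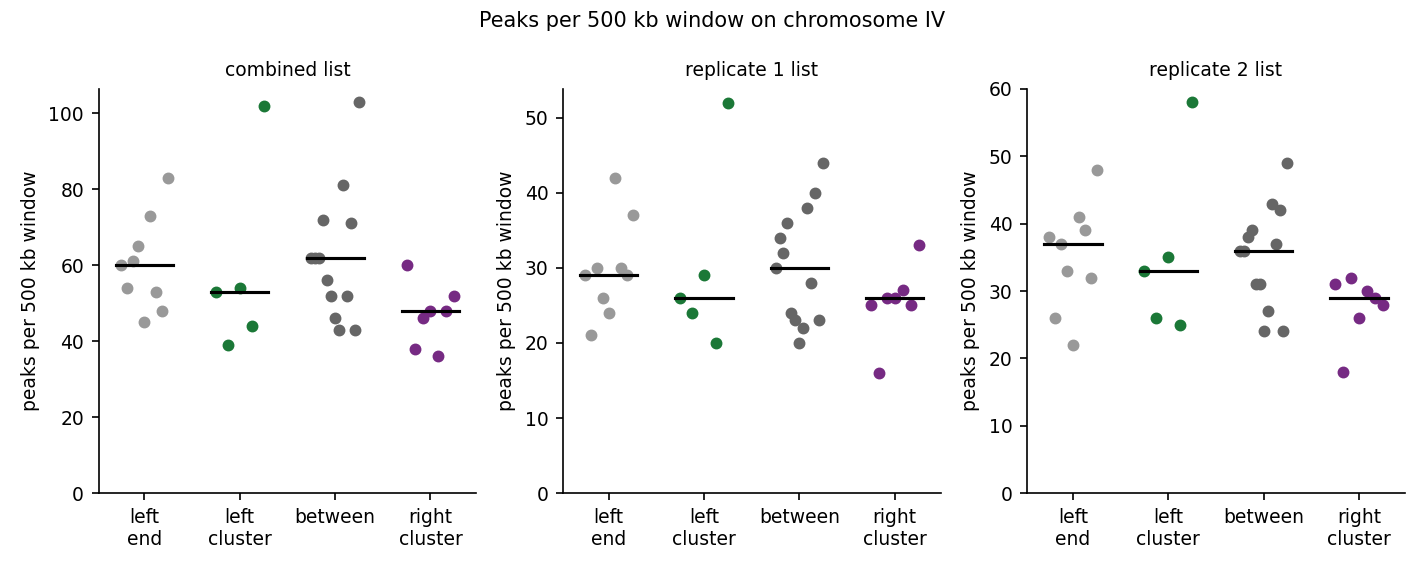
Peaks per 500 kb window on chromosome IV (vertical axis) in the combined list and in each replicate list, by area; each point is a full window and each bar the median of its area. The 7 windows of the right cluster hold 36 to 60 combined peaks, and in the left cluster 1 window, with 102, stands above the other 4, with 39 to 54.

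Over full 500 kb windows, the right cluster held 36 to 60 combined peaks with a median of 48, and the 22 windows of the rest of IV held 43 to 103 with a median of 60.5. The ranges overlap. In the replicate lists the medians were 26 against 29.5 for replicate 1 and 29 against 36.5 for replicate 2. Neighbouring windows are not independent, so these values are a description.

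The density of the left cluster came to a large part from 1 window. From 6.5 to 7.0 Mb it held 102 combined peaks, 52 of replicate 1 and 58 of replicate 2, which is 34.9%, 34.4% and 32.8% of the left cluster's peaks in those lists. Each was the highest count of the cluster. The other 4 windows held 39 to 54 combined peaks. The left cluster as a whole was 1.22-fold denser than the right in the combined list (1.04 to 1.43; exact test, adjusted p = 0.0342), and 1.21 ± 0.07-fold (SD, n = 2) in the replicate lists, where neither list passed the threshold (exact tests, adjusted p = 0.253 and 0.0611). Without that window, which was picked after its values were seen, the left cluster had 95 peaks per Mb and its ratio to the right cluster was 1.00 in the combined list (0.83 to 1.19), 0.95 in replicate 1 and 1.06 in replicate 2.

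Inside that window the peaks gathered in 200 kb, from 6.6 to 6.8 Mb. This stretch joins the fullest 100 kb windows of the cluster, picked by their combined counts. A share of combined peaks above its share of length was fixed by that choice. It is 8% of the left cluster's length and held 70 of its 292 combined peaks. It held 37 of its 151 replicate 1 peaks and 41 of its 177 replicate 2 peaks. Nearly all replicate peaks are in the combined list, so the choice of this stretch favoured high replicate counts too. The peaks there were low-scored. Their median score was 6.26 in the combined list against 13.5 elsewhere in the left cluster. It was 106 against 223 in replicate 1 and 125 against 241 in replicate 2. The score is each peak's value from the authors' peak caller, without a named scale, so it is compared within a list. Both replicates had a peak at 31 of the 70 combined peaks, or 44.3%. This share was close to the 45.5% of the whole left cluster and the 42.4% over all nuclear peaks.

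**Figure D2:**
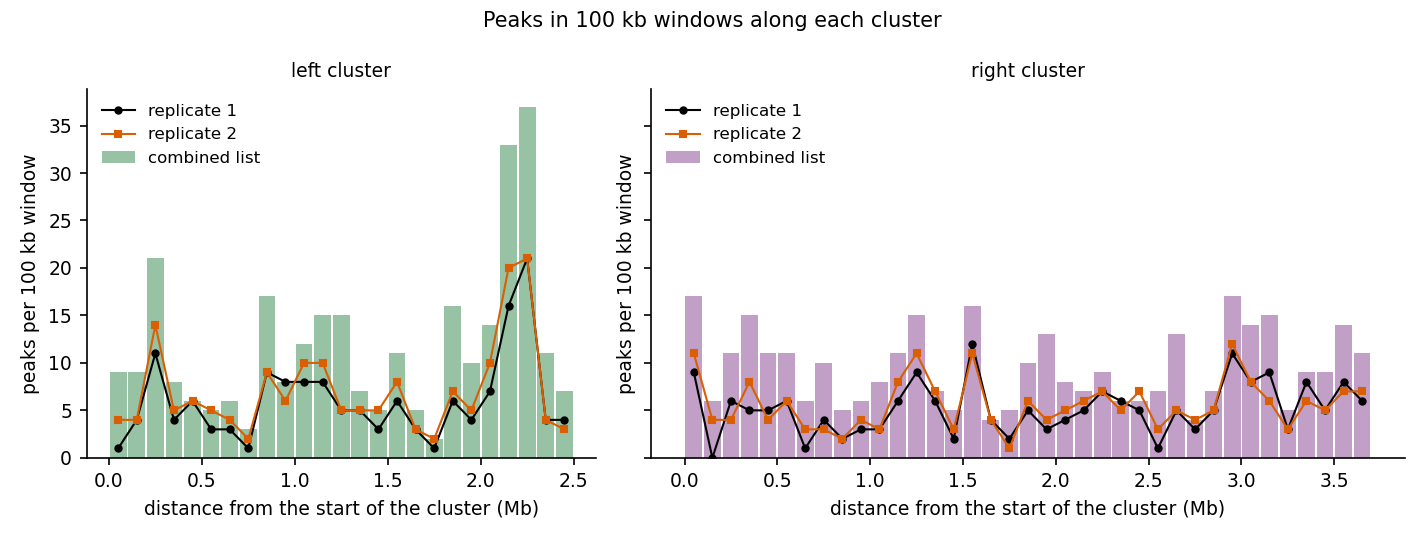
Peaks per 100 kb window (vertical axis) along the left and the right cluster, as distance in Mb from the start of the cluster; bars are the combined list and lines the replicate lists. The left cluster peaks at 33 and 37 combined peaks near 2.2 Mb from its start, and no window of the right cluster holds more than 17.

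In 100 kb windows the median was 9 combined peaks in each cluster and 5 in each replicate list. The fullest window of the left cluster, from 6.7 to 6.8 Mb, held 37 combined peaks and 21 of each replicate, and the emptiest, from 6.2 to 6.3 Mb, held 2, 1 and 2. In the right cluster the fullest windows, from 13.5 to 13.6 Mb and from 16.4 to 16.5 Mb, held 17 combined peaks each. Its emptiest windows, from 15.1 to 15.2 Mb and from 16.2 to 16.3 Mb, held 4 each. No 100 kb window of either cluster was without a combined peak. The window from 13.6 to 13.7 Mb had 0 replicate 1 peaks, 4 replicate 2 peaks and 6 combined peaks, none above a combined score of 10.3.

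In the combined list, peaks of the left cluster lay closer together than those of the right. The median gap between neighbouring combined peaks was 2472 bp on the left and 4626 bp on the right, and 42.3% of the gaps on the left against 31.5% on the right were at most 1500 bp. Between the clusters these values were 3419 bp and 35.0%. In the replicate lists the contrast was smaller. In replicate 1 the median gap was 5964 bp on the left, 7486 bp on the right and 9319 bp between the clusters, and 27.3% of gaps on the left and 26.7% on the right were at most 1500 bp. In replicate 2 the median gaps were 5008, 7031 and 7736 bp, and the shares on the left and right 29.0% and 24.6%. The right cluster's median gap was thus longer than that between the clusters in the combined list and shorter in both replicate lists. Runs of at least 5 combined peaks with gaps of at most 1500 bp numbered 7 on the left, with 63 peaks or 21.6% of the cluster. On the right there were 5 such runs with 28 peaks, or 7.93%, and on the rest of IV 17 runs with 101 peaks, or 7.37%.

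The run with the most peaks on the left held 15 combined peaks over 15.6 kb at chrIV:6688915-6704526, with a highest score of 11.1. It overlapped 3 replicate 1 peaks and 8 replicate 2 peaks. Of its 15 combined peaks, 1 overlapped a peak in both replicates and 9 overlapped none in either. The next run held 12 combined peaks over 7.24 kb at chrIV:6668307-6675543, with a highest score of 7.92, 6 peaks of replicate 1 and 5 of replicate 2. In this run 5 combined peaks overlapped a peak in both replicates and 4 overlapped none. Both runs lie in the crowded 200 kb. On the right the runs with the most peaks had 7 at chrIV:16167384-16173354 and 6 at chrIV:16655798-16659669. The latter holds a combined peak scoring 125.13 and 1 peak in each replicate. In each of these right cluster runs 5 combined peaks overlapped no peak of either replicate. Counted with such neighbours merged, the left cluster was 1.03-fold as dense as the right (0.84 to 1.26) and the right cluster 0.83-fold as dense as the rest of IV (0.71 to 0.95).

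Long stretches without any combined peak occurred in both clusters. On the left the longest were 88.7 kb at chrIV:4950023-5038748 and 79.3 kb at chrIV:5209784-5289053. On the right they were 91.5 kb at chrIV:16268388-16359932 and 83.7 kb at chrIV:15082297-15166032. No peak of either replicate lay wholly inside any of these 4 stretches. The longest on the rest of IV was 104.8 kb, between the clusters.

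The clusters did not differ in support from the replicate lists beyond counting error. In the clusters, 294 of 645 combined peaks were found in both replicates, with an overlap of at least 1 bp, which is 45.6% (Wilson 95% interval 41.8 to 49.4). This share was 42.4% over all nuclear peaks of the list and 41.6% on the rest of IV. The left cluster had 133 of 292, or 45.5%, and the right 161 of 353, or 45.6%. The difference of left minus right was -0.061 percentage points (Newcombe 95% interval -7.73 to 7.63), and that of both clusters minus the rest of IV was 3.98 (-0.65 to 8.62). These intervals cover counting error only.

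A further 235 combined peaks of the clusters, or 36.4%, overlapped no peak in either replicate. This share was 37.2% over all nuclear peaks of the list and 39.3% on the rest of IV. The 235 peaks scored low, with a median of 5.13, whereas the 294 found in both had a median of 37.5. Over all nuclear peaks these medians were 5.21 and 38.1. The highest-scored of the 235 on the left was a 305 bp peak at chrIV:6910073-6910377, with 13.12. On the right it was a 314 bp peak at chrIV:16658769-16659082, with 13.65. Replicate 2 alone supported 40 combined peaks on the left and 38 on the right. Replicate 1 alone supported 14 and 24. In the clusters together, replicate 2 alone thus supported 12.1% of combined peaks and replicate 1 alone 5.89%. Over all nuclear peaks these shares were 14.2% and 6.19%.

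**Figure D3:**
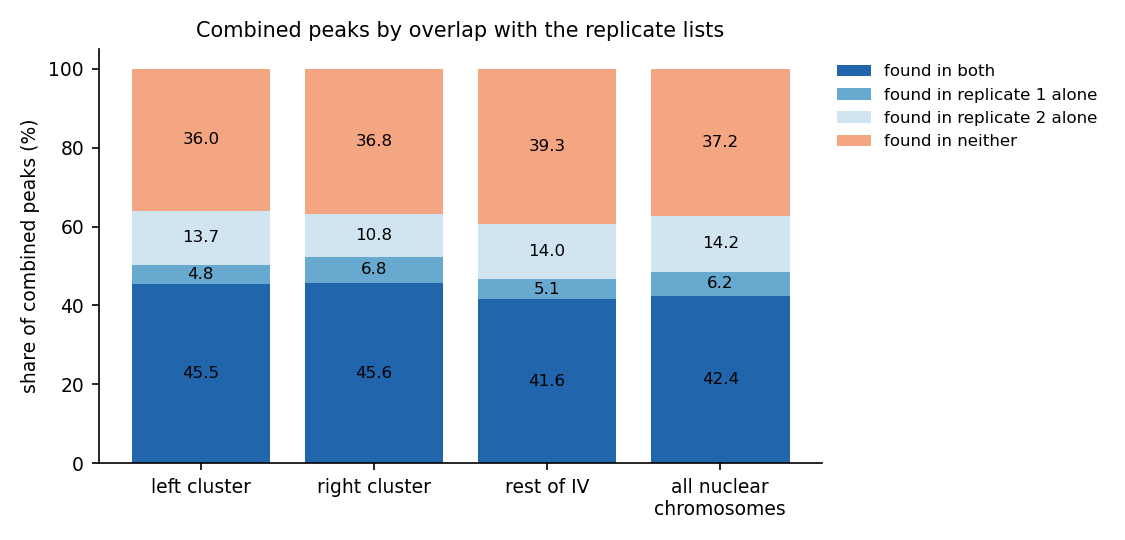
Share of combined peaks in percent (vertical axis) that overlapped a peak in both replicate lists, in replicate 1 alone, in replicate 2 alone or in neither, for each cluster, the rest of chromosome IV and all nuclear chromosomes. Peaks found in both make up 45.5% on the left and 45.6% on the right, against 41.6% on the rest of IV.

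The lower density of the right cluster was then split by replicate support and by score. Peaks found in neither replicate had 35.1 per Mb there against 47.6 on the rest of IV, a ratio of 0.74 (exact 95% interval 0.60 to 0.89). Those found in replicate 2 alone had 10.3 against 17.0 per Mb, a ratio of 0.60 (0.41 to 0.86). Peaks found in both had 43.5 against 50.5 per Mb, a ratio of 0.86 whose interval of 0.72 to 1.03 includes 1. The few found in replicate 1 alone had 6.49 against 6.20 per Mb, a ratio of 1.05 (0.63 to 1.68). With the combined list cut by score into 4 parts of equal size, the ratio was 0.79, 0.71 and 0.73 in the lower 3 parts, each with an interval below 1. In the upper 25% it was 0.92 (0.73 to 1.16). Differences between these ratios were not tested. The replicate lists went different ways in their own upper 25% by score. Replicate 1 had 16.8 such peaks per Mb in the right cluster against 14.8 on the rest of IV, and replicate 2 had 16.5 against 17.9.

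Between the replicates, 136 of 151 replicate 1 peaks on the left overlapped a replicate 2 peak, or 90.1% (Wilson 84.3 to 93.9), and 167 of 192 on the right, or 87.0% (81.5 to 91.0). The share was 88.9% on the rest of IV and 87.3% over all nuclear peaks of replicate 1. In the other direction 76.3% of replicate 2 peaks on the left, 80.3% on the right and 74.2% on the rest of IV overlapped a replicate 1 peak. Over all nuclear peaks of replicate 2 it was 74.7%. Every one of the 343 replicate 1 peaks of the clusters overlapped a combined peak. Of the 385 of replicate 2, 6 did not, with scores from 52.3 to 125. Over all nuclear peaks, 99.6% in replicate 1 and 98.7% in replicate 2 overlapped a combined peak.

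The score of a site in one replicate went with its score in the other. Over pairs that overlapped one to one, Spearman's rho was 0.76 in the left cluster (122 pairs), 0.86 in the right (161 pairs) and 0.79 on the rest of IV (557 pairs). Many peaks are tied at a score of 3100, and among pairs below it rho was 0.75, 0.79 and 0.77. The points of an area come from the same 2 libraries, so these values describe the lists. The midpoints of paired peaks lay a median of 26 bp apart on the left and 19.5 bp on the right.

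**Figure D4:**
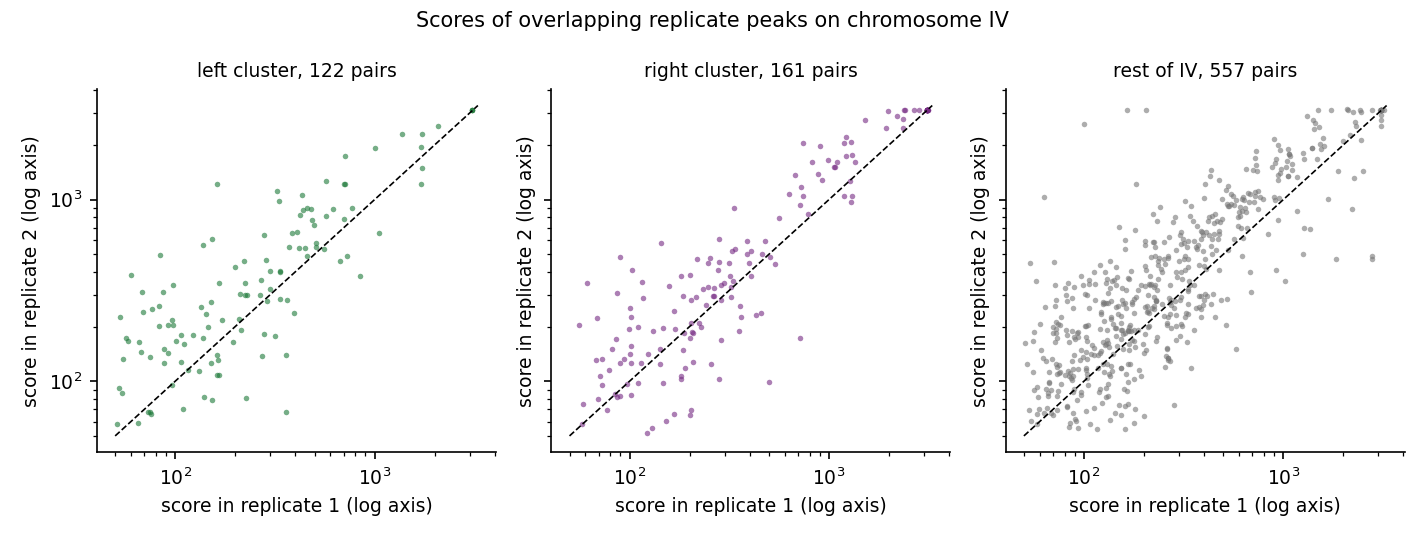
Score in replicate 2 (vertical log axis) against score in replicate 1 (horizontal log axis) for peaks overlapping one to one in the left cluster, the right cluster and the rest of chromosome IV; the dashed line marks equal numbers, although the scales of the replicate lists may differ. The right cluster has a group of pairs at the upper corner, at or near 3100 in both replicates.

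The right cluster held an excess of very high-scored peaks. In replicate 1, 15 of its 192 peaks scored 3100 or more, or 7.81%, against 3 of 151 on the left, 15 of 673 on the rest of IV and 1.97% over all nuclear peaks of that list. In replicate 2 it held 20 of 208, or 9.62%, against 3 of 177 on the left, 25 of 787 on the rest of IV and 3.27% over all nuclear peaks. The right cluster thus held 45.5% of such peaks of chromosome IV in replicate 1 and 41.7% in replicate 2. Of all peaks of chromosome IV it held 192 of 1016 in replicate 1 and 208 of 1172 in replicate 2. Its share exceeded that of the rest of IV by 5.58 percentage points in replicate 1 (Newcombe 95% interval 2.25 to 10.3) and by 6.44 in replicate 2 (2.82 to 11.3), with a mean of 6.01 ± 0.60 (SD, n = 2). This limit was chosen after the scores were seen.

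Wide peaks were also more frequent in the right cluster than on the rest of IV. Of the right cluster's peaks 16.1% in replicate 1 and 16.3% in replicate 2 were at least 1000 bp wide, against 9.51% and 9.02% on the rest of IV. The differences were 6.64 percentage points (1.48 to 12.8) and 7.32 (2.40 to 13.2). Over all nuclear peaks of the replicate lists 8.89% and 8.70% were at least 1000 bp wide. In the left cluster 5.30% and 9.60% were that wide. In the combined list the shares were 10.5% on the right, 7.19% on the left and 6.86% on the rest of IV. The upper 25% of each list by score took 32.3% of right cluster peaks in replicate 1, against 24.8% on the rest of IV. These shares were 29.3% against 25.7% in replicate 2 and 28.0% against 23.9% in the combined list. The interval of the difference excluded 0 in replicate 1 (0.40 to 15.1). It included 0 in replicate 2 (-2.92 to 10.8) and in the combined list (-0.83 to 9.54).

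**Figure D5:**
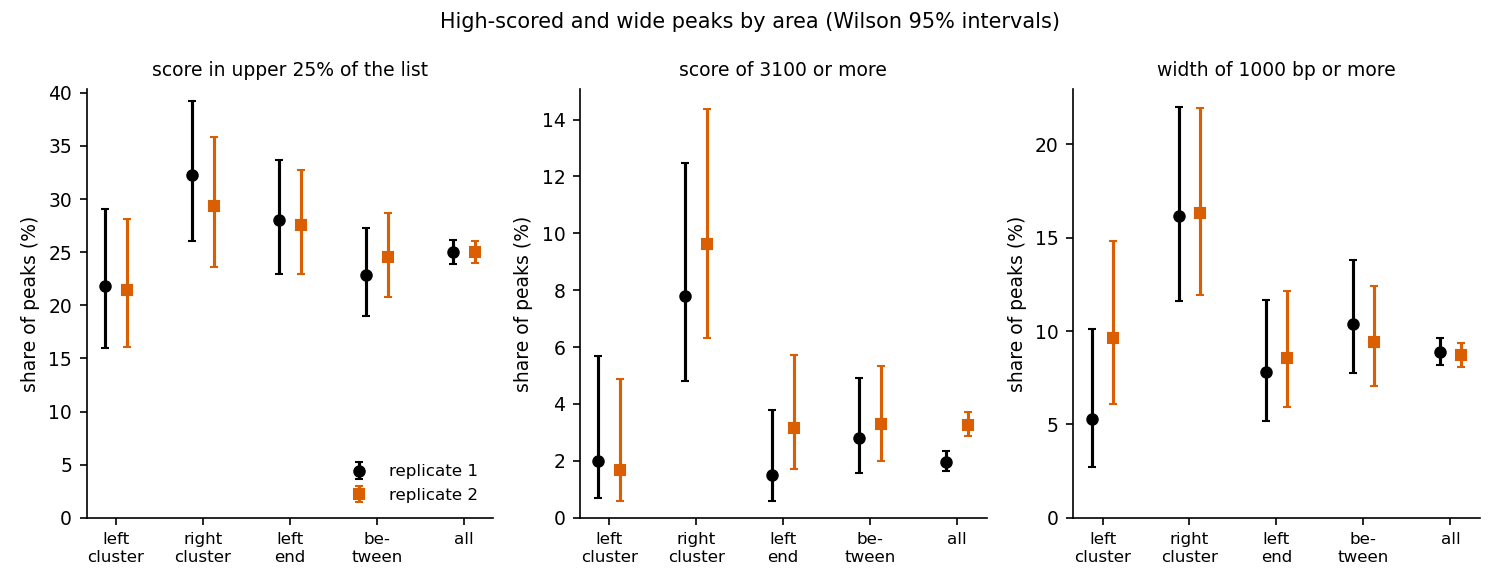
Share of replicate peaks in percent (vertical axis) with a score in the upper 25% of their list, a score of 3100 or more, or a width of at least 1000 bp, by area; "all" is all nuclear chromosomes and bars are Wilson 95% intervals. The right cluster has the highest point in each panel, with 7.81% and 9.62% of peaks at 3100 or more.

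These high-scored sites were spread over the right cluster. The 20 sites at 3100 or more in at least 1 replicate ran from 13.8 to 17.1 Mb, and 15 of them reached 3100 in both. Each overlapped a single combined peak, with combined scores of 74.5 to 144 (median 123) and ranks of 63 to 980 in that list. When peaks less than 10 kb apart were joined, replicate 1 had 13 such sites and replicate 2 had 18, or 3.51 and 4.86 per Mb, against 1.33 and 2.04 per Mb on the rest of IV. In the left cluster all 3 peaks at that level lay side by side within 6.36 kb and formed 1 site.

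The widest site of the right cluster found in both replicates lay at chrIV:14475835-14481081 and was 5247 bp wide. Its combined score was 137.4 at rank 105. It scored 3100 in each replicate, where it was 5292 and 4981 bp wide. Other wide ones at 3100 in both replicates were the peak at chrIV:13929247-13933304, 4058 bp wide with a combined score of 74.51, that at chrIV:15078441-15082296, 3856 bp wide with 123.4, and that at chrIV:15187554-15191032, 3479 bp wide with 124.3.

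The highest combined score of the right cluster, 157.78, belonged to a narrower peak of 640 bp at chrIV:16845200-16845839. It scored 2345 in replicate 1 and 2787 in replicate 2, ranking 188 and 262. The peak at chrIV:15319738-15321205 had a combined score of 144.48 and reached 3158 in replicate 1 and 3100 in replicate 2. The peak at chrIV:15646390-15647213 had 140.9 and that at chrIV:13884141-13885191 had 136.39. Both reached at least 3100 in each replicate. The order of the combined list and that of the replicate lists thus differ among the strongest sites.

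In the left cluster the 5 highest combined peaks found in both replicates lay at 2 places. Near 4.7 Mb lay chrIV:4725364-4725811, with a combined score of 157.78 that equals the top of the right cluster, chrIV:4727386-4728387 with 153.65 and chrIV:4720141-4720924 with 150.94. None of them reached 3100 in a replicate. Their replicate 1 scores were 1715, 2081 and 1724, and their replicate 2 scores 1958, 2548 and 2299. Near 4.9 Mb lay chrIV:4923594-4925346 with 139.5 and chrIV:4921035-4923011 with 123.66, both at 3100 in each replicate. The widest left peak found in both lists was of another kind. It was 4420 bp wide at chrIV:6689341-6693760, inside the run of 15 peaks. Its combined score was 11.06 at rank 6401, and replicate 1 had 2 separate peaks and replicate 2 had 4 within it, with highest scores of 238 and 351.

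Each cluster also had peaks listed in 1 replicate alone. The highest of replicate 1 scored 275 on the left, at chrIV:6320560-6321071, and 211 on the right, at chrIV:16684195-16684568. The highest of replicate 2 scored 579 on the left, at chrIV:6792894-6793539, and 1107 on the right, at chrIV:14779165-14780708. The last was 1544 bp wide, ranked 876 in replicate 2 and was covered by 2 combined peaks with a top score of 25.2. Without read counts such a site cannot be told from one just below the limit of the other list.

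Combined peaks next to the borders were mostly weak. At 4.5 Mb the nearest inside scored 3.43 and the nearest outside 6.72, and at 7.0 Mb these scores were 5.99 and 7.05. At 13.5 Mb the nearest inside was a peak found in both replicates, at chrIV:13499895-13500408, with a score of 19.66, and the nearest outside scored 6.08. At 17.2 Mb they scored 4.23 and 2.95.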

How the data were processed

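ChIP-seq peaks were read from 3 lists: 1 for each ChIP replicate and the combined list. Per the file headers, coordinates are on WormBase WS220, and the files name MACS (replicates) and MACS v2 (combined list) as callers. The submitters' processing notes name BWA and ce10. The score is the deposited value of the authors' peak caller, and its scale, the control, the threshold and how the combined list was made are not stated in any source used. Peak lists hold no read counts, so depth is unknown. The labels do not say whether replicates came from separate cultures. The input libraries and the 3 mitochondrial peaks were not used here. With no WS220 genome used, genes, motifs and sequences under the peaks were not analysed here.

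Peaks were assigned by midpoint; the end of IV was the largest peak end over the lists. Densities were compared with exact binomial tests conditional on length and Benjamini-Hochberg adjustment over 12 ratios, shares with Wilson or Newcombe 95% intervals (Python 3.11.15, scipy 1.17.1, statsmodels 0.14.6); the steps were tested on simulated lists. Named peaks are, per cluster, the 5 highest-scored and the widest combined peaks found in both replicates, the highest found in 1 or neither list, border peaks, longest gaps, fullest runs, and fullest and emptiest windows; other named peaks were chosen after their values were seen. Members and tests were chosen with earlier results of these data known. Alternatives changed score limits, borders, overlap rules, merging, measures and lists.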

Additional observations from a re-analysis of the deposited data

How the results depend on the processing

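The density ratio of both clusters to the rest of IV stayed below 1 in all 10 alternatives run. It no longer passed an unadjusted exact test at 0.05 in the upper 25% by score (0.91) or with borders moved outwards by 250 kb (0.95). Nor did it pass in the replicate lists alone (0.89 to 0.93). Covered bases were compared in the combined list only, where the ratio was 0.92. Replicate 1 peaks covered 3.416% of the clusters and 3.411% of the rest of IV, and replicate 2 peaks 3.79% and 4.03%. The ratio of left to right cluster turned to 0.97 in the upper 25% by score and to 0.996 without the window from 6.5 to 7.0 Mb. It did not pass in the upper 50% by score (1.07) or with neighbours merged (1.03), was 1.12 as covered bases and 1.16 to 1.26 in the replicate lists alone. The ratio of right cluster to rest of IV stayed below 1 in all 9 alternatives. It did not pass in the upper 25% by score of the combined list (0.92) and was 0.87 as covered bases of that list. In the replicate lists alone it was 0.81 to 0.87 by peak number, the higher being replicate 1, which did not pass. Replicate 1 peaks covered 3.54% of the right cluster, above the 3.41% on the rest of IV. For replicate 2 these shares were 3.72% and 4.03%. The ratio of left cluster to rest of IV, 0.96, passed without the window from 6.5 to 7.0 Mb (0.78) and was 1.01 to 1.02 in the replicate lists alone. Leaving out that window, the cluster's fullest, had to lower this ratio and that of left to right cluster. The share of cluster peaks found in both replicates was 41.6% with a reciprocal overlap of 50% and 82.7% in the upper 50% by combined score. Under these rules it was not computed for the rest of IV or all nuclear peaks. These values therefore cannot be read as particular to the clusters. The left minus right difference in the share found in both stayed within its interval in all 4 alternatives. The excess of right cluster peaks at 3100 or more, in percentage points, was 7.11 at 2000 or more, 8.94 at 1000 or more, 7.03 and 5.36 with borders moved inwards and outwards, 7.71 with neighbours merged, and 5.58 to 6.44 in single replicates. The causes were not tested. Alternatives for that excess, for each cluster against the rest of IV and without a window were chosen after seeing the data. No paired analysis was possible because input DNA, numbered like the ChIP replicates, was not used here.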
